A study of Mus musculus with 3 samples.

Results

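This account covers 10 mouse genes of the acute-phase and endotoxin response in lower-limb skeletal muscle: Hp, Hpx, Lcn2, S100a8, S100a9, Saa3, Cd14, Lbp, Orm1 and Cp. They were found by their names or RefSeq accessions among the probes of the array and are 10 of the 32395 genes and accessions on it, with 11 of its 39429 non-control probes, 2 for Cp and 1 for each of the others. Of the members, 7 of 10 passed the filter on dim probes and are among the 17477 genes tested. The members were chosen by function and by their knockout over control ratios on these same arrays, which were already known, so those ratios are given here as a description of the members, with no p-value; members past the threshold of the fit over all genes are only counted, beside the share of all genes.

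Control mice were compared with mFoxO1KO mice, in which FoxO1, a forkhead transcription factor, had been deleted inducibly and only in skeletal muscle. All animals were male C57BL/6 mice, and both genotypes ate an AIN93G diet with doxycycline (0.625 g/kg) between week 8 and week 14 of age, so the controls had the drug as well. The promoter that drives the deletion and the age at which tissue was taken are not given in the sources used here. There were 3 biological replicates per genotype, and each of the 3 Agilent 2-colour arrays carried 1 control sample in Cy3 and 1 mFoxO1KO sample in Cy5, with no dye swap. A dye effect of a single probe and the genotype therefore cannot be told apart in any ratio below.

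Acute-phase proteins are plasma proteins whose output rises in infection or injury, in the liver and also in fat, macrophages and other tissues. Their genes answer to interleukin-6 through STAT3, to interleukin-1 and endotoxin through NF-kB, and to C/EBP factors and glucocorticoids. Endotoxin itself is handed by the plasma protein Lbp to Cd14 on the cell surface, and from there to the receptor Tlr4. Several members bind what must be kept from pathogens or tissue: Hp binds free haemoglobin, Hpx binds haem, Lcn2 takes up bacterial iron carriers and Cp oxidises iron.

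The arrays were of similar quality. The share of probes well above background was 52.0% to 55.9% in control channels and 56.1% to 56.9% in mFoxO1KO channels, and no spot was saturated. All 10 skeletal muscle markers, among them the creatine kinase gene Ckm and the actin gene Acta1, were well above background in every channel. Foxo1, given as a check of the labels, had log2 ratios of -1.50, -2.42 and -2.27 on arrays 1 to 3 (mean -2.06). Its other probe had a mean of -1.39, and the position of both probes relative to the deletion is unknown here. In all, 466 of 17477 genes (2.67%) passed a limma adjusted p of 0.05, 350 higher (2.00%) and 116 lower (0.664%) in mFoxO1KO muscle. The median log2 ratio of all genes tested was 0.02, -0.00 and 0.01 on the 3 arrays.

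The promoters of 6 members are in the RefSeq table of the GRCm38.p6 assembly, each as 250 bases before and 50 bases after a transcription start. Windows of 4 members are printed, those of Lcn2, S100a8 and S100a9, whose ratios were above 0 on every array, and that of Hpx, which differed between animals. Capitals mark matches, on either strand, to the letters searched: TTNNGCAA for C/EBP factors and TATAAA for a TATA box.
Lcn2 (chr2:32387690-32387989, - strand): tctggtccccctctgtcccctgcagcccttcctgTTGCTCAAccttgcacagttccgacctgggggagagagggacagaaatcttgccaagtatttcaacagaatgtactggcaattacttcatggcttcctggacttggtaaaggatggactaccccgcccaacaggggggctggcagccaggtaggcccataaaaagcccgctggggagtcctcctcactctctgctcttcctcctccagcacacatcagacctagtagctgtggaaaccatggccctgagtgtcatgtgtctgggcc
S100a8 (chr3:90668821-90669120, + strand): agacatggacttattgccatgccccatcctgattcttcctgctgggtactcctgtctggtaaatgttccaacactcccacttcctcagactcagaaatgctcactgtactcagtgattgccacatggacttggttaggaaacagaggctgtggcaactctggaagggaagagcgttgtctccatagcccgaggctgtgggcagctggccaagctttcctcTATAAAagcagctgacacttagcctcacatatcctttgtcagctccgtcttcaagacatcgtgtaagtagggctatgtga
S100a9 (chr3:90695672-90695971, - strand): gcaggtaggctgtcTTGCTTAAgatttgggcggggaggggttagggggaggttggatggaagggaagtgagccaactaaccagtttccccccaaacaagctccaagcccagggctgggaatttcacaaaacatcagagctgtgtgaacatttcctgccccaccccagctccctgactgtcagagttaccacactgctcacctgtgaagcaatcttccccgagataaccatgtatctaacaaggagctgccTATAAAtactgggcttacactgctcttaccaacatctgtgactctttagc
Hpx (chr7:105600067-105600366, - strand): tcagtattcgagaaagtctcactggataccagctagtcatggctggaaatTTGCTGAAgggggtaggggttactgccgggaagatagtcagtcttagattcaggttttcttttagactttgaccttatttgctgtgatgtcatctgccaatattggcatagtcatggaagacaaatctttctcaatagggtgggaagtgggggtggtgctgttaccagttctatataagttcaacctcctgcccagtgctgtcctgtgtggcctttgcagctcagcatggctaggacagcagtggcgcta

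A C/EBP match was found in the windows of Lcn2 (-216 to -209 from the start), S100a9 (-236 to -229), Hpx (-200 to -193), Saa3 (-99 to -92) and 1 of the 2 Cp windows (-70 to -63). The same letters occur in 10.8% of all 32851 promoter windows of the table. The S100a8 window held TATAAA at -30 to -25, and the Cp window with the C/EBP match held it at -25 to -20 and, on the other strand, at -27 to -22, overlapping it. In the S100a9 window the letters stand at 1 to 6 after the start. TATAAA occurs in 13.6% of all windows. The STAT letters TTCNNNGAA (8.30% of all windows), the NF-kB consensus (8.46%) and the FoxO letters GTAAACA (3.65%) were not in any of the 7 member windows. These are matches of letters only.

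**Figure D1:**
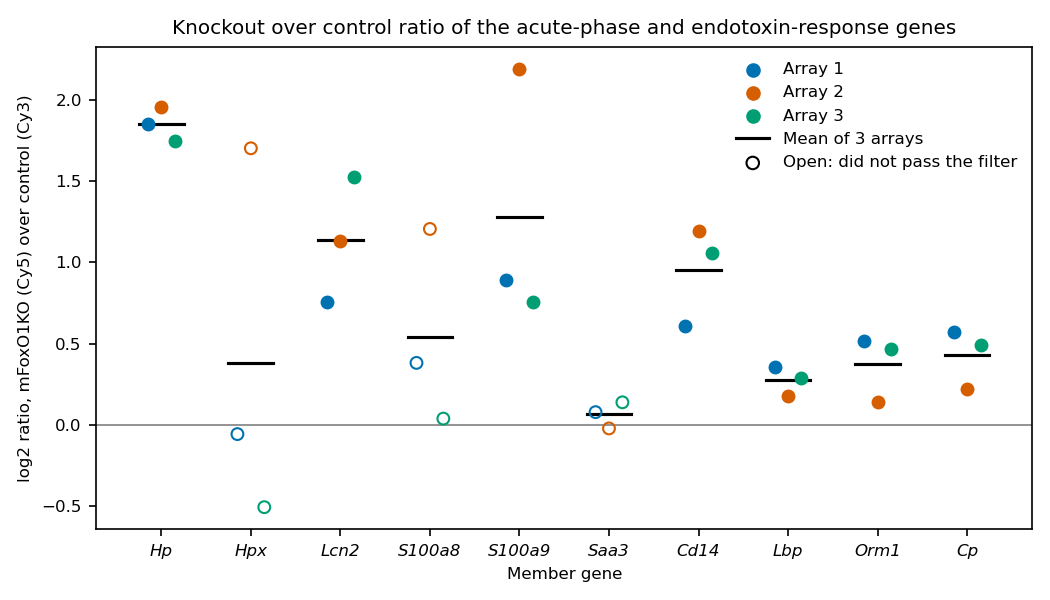
Log2 ratio of mFoxO1KO (Cy5) over control (Cy3) for each of the 10 members, with 1 point per array and a bar at the mean of 3 arrays; open points belong to members that did not pass the filter on dim probes. Hp lies between 1.75 and 1.96 on all arrays, whereas Hpx runs from -0.50 to 1.70.

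Hp, the haptoglobin gene, had the largest mean ratio of the members with the processing used here; with the deposited log ratio S100a9, Orm1 and S100a8 had larger ones (2.70, 2.30 and 2.12 on the log2 scale, against 1.97 for Hp). Its spot signal was 466.5, 766 and 443 in the control channels of arrays 1 to 3 against 2751.5, 4346 and 2605 in the mFoxO1KO channels. After normalisation the control levels were 9.28, 9.86 and 9.18 and the mFoxO1KO levels 11.13, 11.82 and 10.92, on the log2 intensity scale. Every mFoxO1KO sample was above every control sample, with 1.06 log2 units between the closest pair. Array 2 was the brightest for this gene in both channels. The log2 ratios were 1.85, 1.96 and 1.75, a mean of 1.85 ± 0.11 (SD, n = 3 arrays), or 3.61-fold. The mean lay between 1.80 and 2.05 in the 7 alternatives that could change it.

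Hpx, which encodes the haem-binding plasma protein hemopexin, did not pass the filter. It was well above background in 2 of 3 control and 2 of 3 mFoxO1KO channels, those of arrays 2 and 3. Control levels were 6.47, 6.63 and 7.25, and mFoxO1KO levels were 6.41, 8.33 and 6.75. The mFoxO1KO sample of array 2 stood above all others, and the control sample of array 3 came next, so the groups overlapped. Its log2 ratios were -0.06, 1.70 and -0.50 (mean 0.38 ± 1.17, SD, n = 3), and the mean was -0.28 without replicate 2.

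Some transcripts of liver cells were high in the same samples as Hpx, while Cyp2e1, given below, was highest in the mFoxO1KO sample of array 1. Alb, the serum albumin gene, had control levels of 6.52, 7.80 and 8.16 and mFoxO1KO levels of 6.47, 10.34 and 7.26. Serpina1a, which encodes the protease inhibitor alpha-1-antitrypsin, had log2 ratios of 0.47, 3.20 and -1.30, and Ahsg, the fetuin-A gene, 0.12, 2.57 and -0.72. All 3 genes were, like Hpx, highest in the mFoxO1KO sample of array 2 and next highest in the control sample of array 3; they were singled out after their values were seen. The 9 hepatocyte markers on the array had summed normalised intensities of 3860 to 8232 in control and 16827 to 21732 in mFoxO1KO channels, with 3 to 8 markers above background per control and 4 to 9 per mFoxO1KO channel and none at background on every array. Of the bright markers, Apoa2, an apolipoprotein gene, had log2 ratios of -0.12, 0.52 and -0.20, and Cyp2e1, a cytochrome P450 gene, had 3.09, 0.66 and 1.97. The median log2 ratio of the 9 markers was -0.00, 1.23 and -0.24 on arrays 1 to 3, whereas the log2 ratio of their sums was 2.49, 1.03 and 1.37 and so lowest on array 2. Without Cyp2e1, a list trimmed after the values were seen, the sums were 1479 to 2800 in control and 1437 to 7500 in mFoxO1KO channels, and the median log2 ratio of the 8 markers was -0.02, 1.34 and -0.38 on the 3 arrays. Their part in the Hpx values was not tested.

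Cp encodes ceruloplasmin, a copper-carrying ferroxidase, and was measured by 2 probes. The brighter probe had control levels of 8.47, 8.96 and 8.52 and mFoxO1KO levels of 9.04, 9.18 and 9.02. The groups did not overlap, but the closest pair was only 0.06 apart. Its log2 ratios were 0.57, 0.22 and 0.50 (mean 0.43 ± 0.18, SD, n = 3, or 1.35-fold). The dimmer probe, designed on another Cp transcript, had 0.23, -0.07 and 0.14 (mean 0.10 ± 0.15), with overlapping groups. Both probes had their lowest ratio on array 2.

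Lcn2, the gene of a secreted lipocalin that binds bacterial siderophores, had control levels of 7.21, 7.82 and 8.05 and mFoxO1KO levels of 7.97, 8.95 and 9.58. The mFoxO1KO sample was higher on each array, yet the groups overlapped slightly, since the control of array 3 exceeded the mFoxO1KO sample of array 1. Samples of one array were high or low together, with a range of 0.84 among controls and 1.61 among mFoxO1KO samples. The log2 ratios were 0.76, 1.13 and 1.53 (mean 1.14 ± 0.38, SD, n = 3, or 2.20-fold).

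S100a9 and S100a8 encode the subunits of calprotectin, a calcium- and zinc-binding protein abundant in neutrophils. S100a9 was well above background in all 3 mFoxO1KO channels but in only 1 control channel, that of array 2, so it passed the filter through the channel in which it was high. Its control levels were 6.61, 7.24 and 6.58 and its mFoxO1KO levels 7.50, 9.43 and 7.33. The mFoxO1KO sample of array 2 was far above the other samples, and the groups did not overlap, with 0.09 between the closest pair. The log2 ratios were 0.89, 2.19 and 0.76 (mean 1.28 ± 0.79, SD, n = 3). With the control above background on 1 of 3 arrays, no fold is given.

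S100a8 was not well above background in any control channel and was so in 2 of 3 mFoxO1KO channels, so it did not pass the filter. Control levels were 6.26, 6.48 and 6.53 against mFoxO1KO levels of 6.64, 7.68 and 6.57. As with S100a9, the mFoxO1KO sample of array 2 was the highest. Log2 ratios were 0.38, 1.21 and 0.04 (mean 0.54 ± 0.60, SD, n = 3), and the mean was 0.21 without replicate 2. With no control channel above background, no fold is given. For dim genes the ratio also depended on the treatment of background: with the deposited log ratio the mean log2 ratios were 2.12 for S100a8 and 2.70 for S100a9.

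Several neutrophil markers gave no signal above background in these muscles. Of the 11 markers on the array, Mpo, Ngp, Cxcr2 and Mmp9 were not well above background in any channel, while 4 markers were so in each control channel and 3 to 6 in the mFoxO1KO channels. Camp, the cathelicidin gene, singled out after its values were seen, had log2 ratios of 0.10, 0.62 and -0.06 at its brighter probe, which did not pass the filter. Its other probe, which passed only through the mFoxO1KO channel, had 0.23, 0.45 and 0.01. The median ratio of the 11 markers was 0.10, 0.10 and -0.02, and the summed intensity was 31577 to 44245 in control and 35061 to 45255 in mFoxO1KO channels. Most of this sum came from the probe of Csf3r, with mean log2 levels of 14.96 in control and 15.13 in mFoxO1KO channels. Itgam came next, at 12.07 and 12.23, so the sum says little of the other markers. In whole tissue, fewer cells of a type and less RNA per cell cannot be told apart. The part of neutrophils in the calprotectin values was not tested.

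Cd14, the surface receptor that takes endotoxin from Lbp, was well above background in all 6 channels. The 3 controls lay close together at 7.22, 7.32 and 7.26, and the mFoxO1KO levels were 7.83, 8.51 and 8.32. All mFoxO1KO samples were above all controls, by 0.50 at the closest. The control SD of 0.05 was smaller than the mFoxO1KO SD of 0.36. The log2 ratios were 0.61, 1.19 and 1.06 (mean 0.95 ± 0.31, SD, n = 3, or 1.93-fold).

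Markers of monocytes and macrophages, which carry Cd14, had smaller ratios than Cd14 on each array. The median over the 9 markers on the array was -0.15, 0.30 and 0.19, and their summed intensity was 6261 to 7918 in control and 6850 to 8859 in mFoxO1KO channels, with 7 markers above background in each control channel and 7 to 9 in the mFoxO1KO channels. Of the bright markers, Itgam, also listed for neutrophils, had 0.40, 0.11 and -0.02 at its brightest probe. The other Itgam probes had means of -0.21 and -0.11. Csf1r, the receptor gene for macrophage colony-stimulating factor, had -0.15, 0.14 and 0.50. Mrc1, the mannose receptor gene, singled out after its values were seen, had -0.04, 0.66 and 0.75, the largest mean of the list. Mpeg1 and Ccr2, likewise singled out, had means below 0, with -1.03, 0.31 and 0.06 and with -0.68, 0.03 and -0.13. The other probe of Mpeg1 had a mean of 0.11. The part of monocytes and macrophages in the Cd14 ratio was not tested.

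Lbp, which carries endotoxin to Cd14, had control levels of 7.75, 8.21 and 7.81 and mFoxO1KO levels of 8.10, 8.39 and 8.11. The groups overlapped, since the control of array 2 was above the mFoxO1KO samples of arrays 1 and 3. Its ratios were small and even, at 0.35, 0.18 and 0.29 (mean 0.28 ± 0.09, SD, n = 3, or 1.21-fold).

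Orm1 encodes alpha-1-acid glycoprotein, a plasma protein that binds lipophilic compounds. It was not well above background in any control channel and was so in all 3 mFoxO1KO channels, which is how it passed the filter. Control levels were 6.48, 6.52 and 6.57 and mFoxO1KO levels 6.997, 6.67 and 7.04. The groups did not overlap, and the lowest mFoxO1KO sample, that of array 2, was 0.10 above the highest control. Orm2, its close paralog, singled out after its values were seen, had ratios in the same order over the arrays, at 0.72, 0.27 and 0.63; whether either probe also binds the other transcript is unknown here. The Orm1 log2 ratios were 0.51, 0.14 and 0.47 (mean 0.37 ± 0.20, SD, n = 3). The mean of the deposited log ratio was 2.30 on the log2 scale in place of 0.37. With no control channel above background, no fold is given.

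Saa3, the serum amyloid A gene of macrophages and fat, was not well above background in any of the 6 channels. Its spot signals were 61, 76 and 61 in the control channels and 57, 66 and 55 in the mFoxO1KO channels, over local backgrounds of 35 to 39.5 and 52 to 56. No fold is given.

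**Figure D2:**
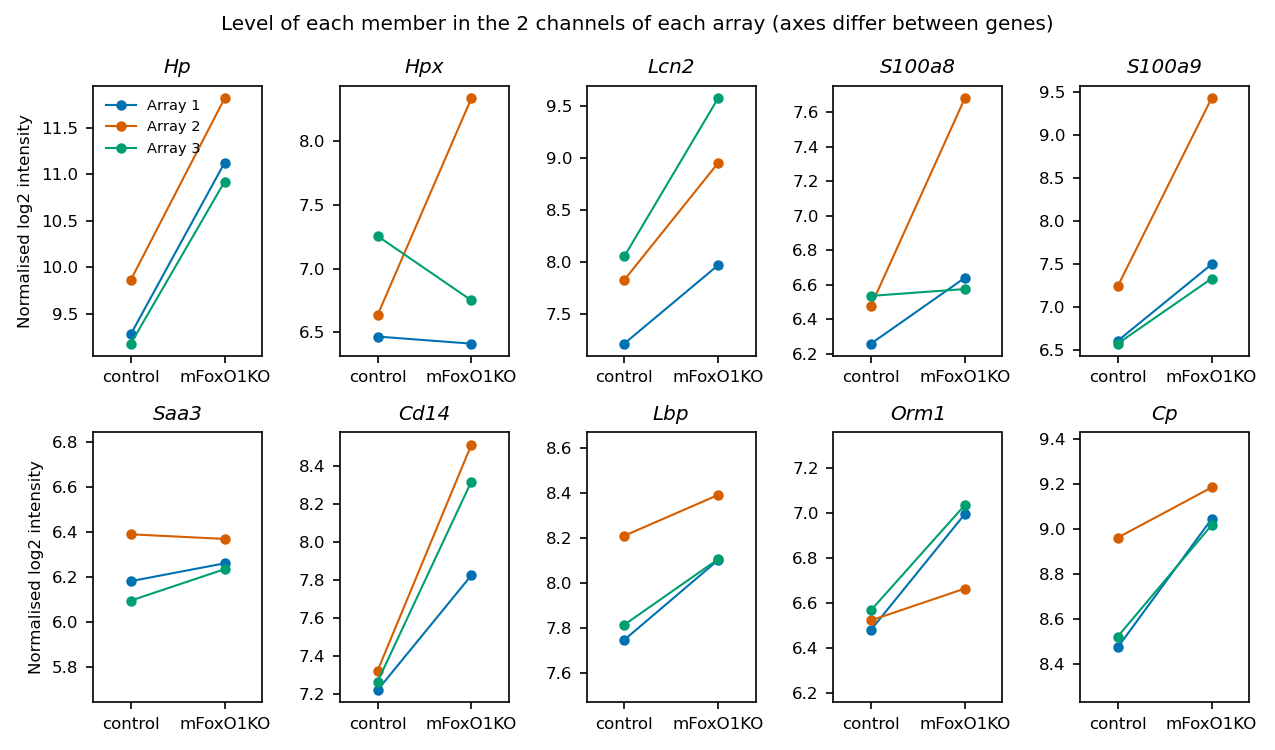
Normalised log2 intensity of each member in the control and mFoxO1KO channels, with a line for each array; each gene has its own axis. The mFoxO1KO level of Hp is at least 1.06 above every control level, while the Lcn2 and Lbp groups overlap and Hpx is high in the mFoxO1KO sample of array 2.

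Across the members, 7 of 7 members that passed the filter had ratios above 0 on all arrays, against 27.9% of all genes tested, and 5 of 7 had all mFoxO1KO levels above all control levels, against 14.0%, while no tested member had all of them below, against 11.8%. Hp, Lcn2 and Cd14 were past the limma threshold over all genes (3 of 7, against 2.67%), a count that fell to 1, Hp, without replicate 2 or without replicate 3. Because the members were named from this same contrast, and Orm1 and S100a9 passed the filter only through the mFoxO1KO channel, nothing is read from these counts. The arrays did not rank the members alike: array 2 had the highest ratio of Hp, Hpx, S100a8, S100a9 and Cd14 and the lowest of Lbp, Orm1 and Cp. Over all 10 members the median log2 ratio was 0.54, 1.16 and 0.48 on arrays 1 to 3.

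Hp is also made by fat cells, and adipocyte markers differed between the channels by amounts that changed from array to array. The median log2 ratio of the 11 adipocyte markers on the array was 2.53, 0.22 and 1.80, and their summed intensity was 40537 to 93426 in control and 101940 to 206930 in mFoxO1KO channels. Of these markers 9 or 10 were above background in each channel, and Lep, the leptin gene, was so in none. Fabp4, a fatty acid carrier gene, had ratios of 1.49, -0.03 and 0.52, and Cfd, the adipsin gene, 3.49, 0.19 and 2.12. The Hp ratios on the same arrays were 1.85, 1.96 and 1.75. The part of adipocytes in the ratios of Hp and the other members was not tested.

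**Figure D3:**
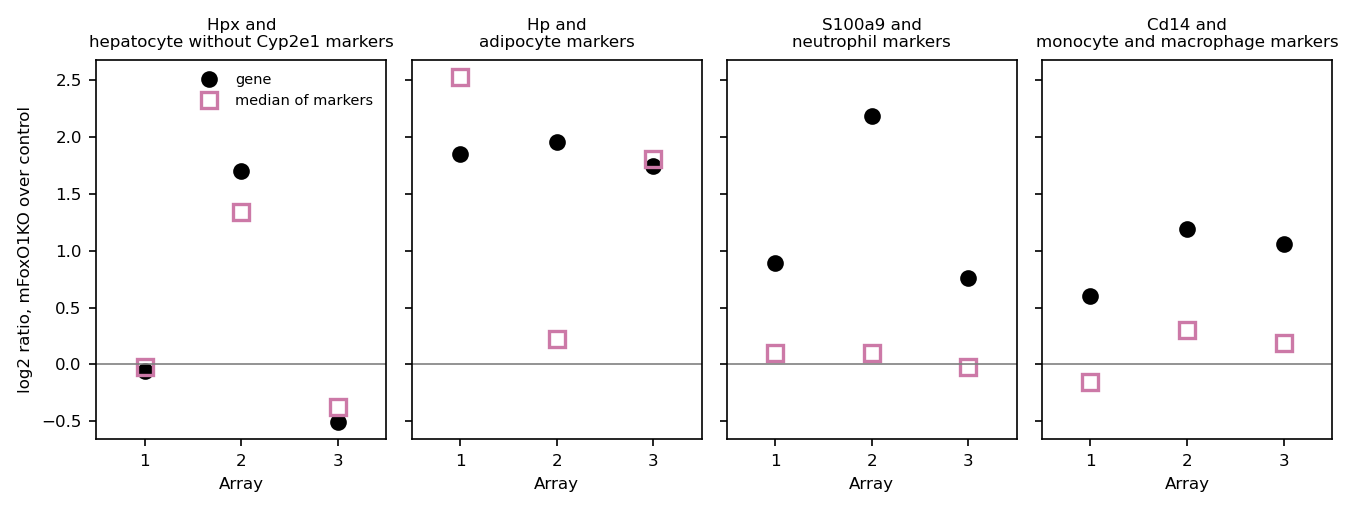
Log2 ratio of 4 members (filled circles) and the median log2 ratio of a marker list (open squares) on each array. The 8 liver markers are those left without Cyp2e1, a list trimmed after the values were seen. On array 2 Hpx is at 1.70 and their median at 1.34, and Hp is at 1.85, 1.96 and 1.75 beside adipocyte medians of 2.53, 0.22 and 1.80; no relation was tested.

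Other genes of these pathways were taken from 6 lists drawn up by function with earlier results of these arrays known. The shares below are therefore a description. Of the 119 genes listed, 88 were tested. Of these, 3 (3.41%) rose and 1 (1.14%) fell at a limma adjusted p of 0.05, against 2.00% and 0.664% of all genes. The count of 4 went to 0 without replicate 2 and to 20, of which 19 were higher, when arrays were centred on the median in place of loess, which moved the median over all genes to 0.16.

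Among other positive acute-phase plasma proteins, 2 of 11 tested genes rose and 9 did not pass. Lrg1, a leucine-rich glycoprotein gene, had log2 ratios of 1.05, 0.90 and 0.66 (mean 0.87 ± 0.20, SD, n = 3, limma adjusted p = 0.0351). The complement gene C4b had 0.84, 0.43 and 0.90 (mean 0.72 ± 0.25, limma adjusted p = 0.0492). All 11 means were above 0 and the list's median was 0.54, against 0.01 for all genes. The share of all genes with a mean above 0 was not counted. Orm2 and Serpina3m passed the filter only through the mFoxO1KO channel, which favours means above 0. Probes of the listed genes that were not tested had means on both sides of 0. Of the 24 listed genes on the array 13 were not tested, among them those of the 3 fibrinogen chains and Crp, which were not above background throughout either channel.

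Of the endotoxin receptor and NF-kB signalling genes, 1 of 26 rose. It was Irak3, which encodes an inhibitor of Toll-like receptor signalling, with 0.43, 0.62 and 0.37 (mean 0.47 ± 0.13, SD, n = 3, limma adjusted p = 0.0494), and the list's median was 0.08. None of 7 cytokine and adhesion genes passed in limma, and 1 had an unadjusted limma p under 0.05. The share of all genes with such a p was not counted, so nothing is read from this count or from such counts below. Another 9 genes of that list, Tnf and Il1b among them, were not tested for lack of signal. The adhesion gene Vcam1 had the smallest p of that list, with a mean of 0.41 ± 0.24 (limma adjusted p = 0.0972), and its other probe had -0.08.

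None of 20 genes of interleukin-6, STAT3 and C/EBP control passed in limma. An unadjusted limma p under 0.05 was found for 5 of them, with the share of all genes not counted. Cebpd, a C/EBP factor gene induced in the acute phase, had -0.96, -1.35 and -0.30 (mean -0.87 ± 0.53, SD, n = 3, limma adjusted p = 0.0874). Socs3, the STAT3 feedback inhibitor gene, singled out after its values were seen, had 0.36, 1.29 and 0.31 (mean 0.65 ± 0.55, limma adjusted p = 0.143), highest on array 2 as were S100a9 and S100a8. The list's median was 0.00.

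Of 15 genes handling haemoglobin, haem, iron and copper, 1 fell. It was Slc40a1, the gene of the iron exporter ferroportin, whose exported iron ceruloplasmin oxidises, with -1.09, -0.89 and -0.69 (mean -0.89 ± 0.20, SD, n = 3, limma adjusted p = 0.0342). Cd163, the macrophage receptor gene for haptoglobin with haemoglobin, was well above background in no control channel and in 2 mFoxO1KO channels and was not tested. None of the 9 other S100 genes tested passed in limma, and 4 had an unadjusted limma p under 0.05. All 9 means were above 0, from 0.01 to 0.40 (median 0.30). Shares of all genes with such a p or with a mean above 0 were not counted, so nothing is read from these counts. S100a11 had the smallest p, with a mean of 0.40 ± 0.15 (limma adjusted p = 0.0675).

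**Figure D4:**
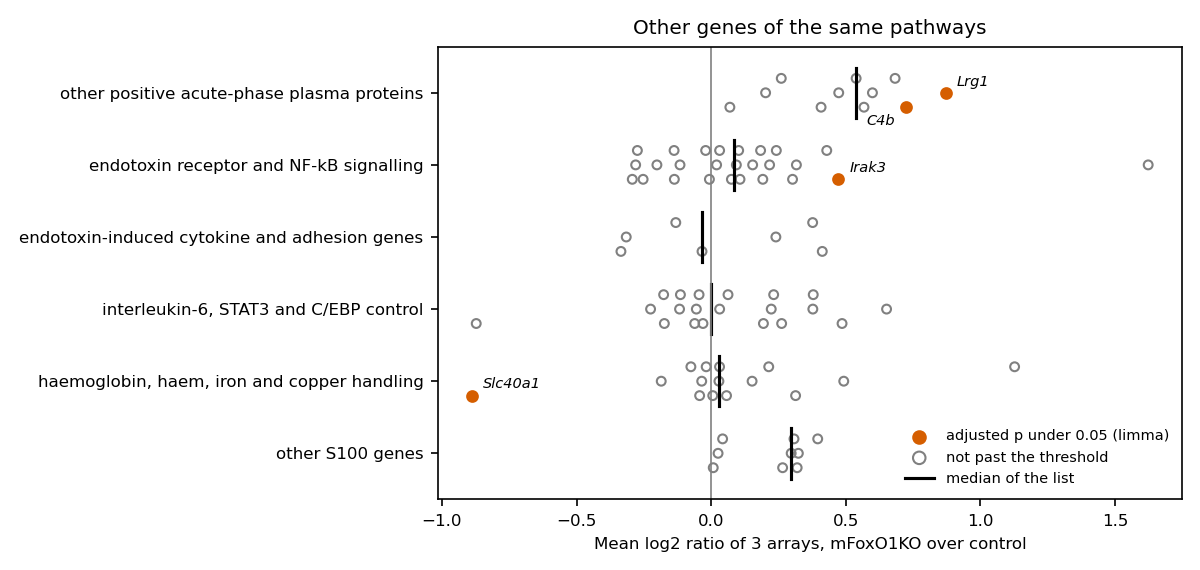
Mean log2 ratio of the 88 tested genes of 6 lists related to the members, with 1 point per gene and list, filled and named where the limma adjusted p over all genes was under 0.05; a vertical bar marks each list's median. All 11 acute-phase plasma protein genes lie above 0, and the 4 named genes are the ones that passed. Of those 11, Orm2 and Serpina3m passed the filter on dim probes only through the mFoxO1KO channel.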

How the data were processed

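RNA of 3 control and 3 mFoxO1KO muscles was hybridised in pairs to 3 Agilent arrays on 1 slide. The deposited files are scanner output; per the file headers they were made with Feature Extraction 11.5.1.1, while the submitters' processing notes name 9.3.2.1. They hold deposited median intensity per spot and local background as scanned, processed intensity, log10 ratios of Cy5 over Cy3, and flags, which serve here as the filter. Background was corrected with normexp (offset 50) and dyes with loess in limma 3.58.1 under R 4.3.3; levels per channel were then Aquantile-scaled between arrays. Flagged spots (281 to 319 per array) were left out. A probe was kept if well above background on all 3 arrays in the same channel, with an unflagged spot on at least 2. The brightest probe stood for a gene. Of 39429 probes, 27508 (69.8%) took a symbol by accession from the RefSeq table of GRCm38.p6; the array design names an older build, so only promoter coordinates are given.

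Log2 ratios were tested against 0 (limma, lmFit and eBayes, two-sided, Benjamini-Hochberg over 17477 genes). Channels are paired by the shared array. Errors are SDs; the number of arrays limits the precision. The members, lists and marker genes were chosen with earlier results of these data known. Named genes are all members, up to 4 called genes of each pathway list or else that of smallest p, the 2 brightest and any called gene of each marker list, and Foxo1; others are said to have been singled out. No sample is known to be a technical copy. Each p-value tests a mean log2 ratio against 0, with a variance moderated over all genes tested, and rests on these 3 pairs.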

Additional observations from a re-analysis of the deposited data

How the results depend on the processing

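There were 13 alternatives, of which the fit with a variance trend bears on the counts only. Of the other 12, 7 could change a member's ratio, and an 8th, the mean over probes, only that of Cp. In these the direction of all members held except that of Saa3, which is at background, and Hpx. Saa3 went from 0.07 to -0.053 with median centring and to -0.044 with the deposited log ratio, and Hpx from 0.38 to between -0.28 and 0.82 when 1 array was left out. The median over 10 members was 0.49, and 1.44 with the deposited log ratio. The count of 466 genes became 187 with a normexp offset of 10, 1222 with median centring (1171 higher, 51 lower), 201 with the deposited log ratio, 747 without a filter, 55 when both channels had to be above background, 708 with a variance trend, and 49 to 407 when 1 array was left out. The 3 members past the threshold became 5 with median centring, 2 with the deposited log ratio (Hp and S100a9, without Lcn2 and Cd14) and 1, Hp, when both channels had to be above background, and were 1 to 3 when 1 array was left out. The 4 pathway genes became 2 with an offset of 10, 20 with median centring, 1 with the deposited log ratio, 0 with both channels above background, 2 with the mean over probes, and 0 to 3 when 1 array was left out. With both channels fitted separately and the array as replicate block, which is the pairing already used, the counts were 466, 3 and 4; with no replicate block they were 215 genes, 1 member and 0 pathway genes. The causes were not tested. Signal over background limits what can be said of Saa3, S100a8, S100a9, Orm1 and Hpx.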

Other observations

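Cyp2e1, a cytochrome P450 gene listed as a hepatocyte marker, had log2 ratios of 3.09, 0.66 and 1.97 on arrays 1 to 3, an order shared with the adipocyte medians of 2.53, 0.22 and 1.80 and not with Alb, at -0.05, 2.54 and -0.89. Among neutrophil markers the probe of Csf3r and the brightest probe of Itgam were well above background in every channel. Their ratios were 0.54, 0.02 and -0.07 and 0.40, 0.11 and -0.02, and the other Itgam probes had means of -0.21 and -0.11. Mpo, Ngp, Cxcr2 and Mmp9 were well above background in no channel. The haemoglobin genes Hba-a1 and Hbb-bt had ratios of 1.04, -0.00 and -0.34 and of 1.07, 0.01 and -0.24. The transferrin gene Trf, of a plasma iron carrier and likewise singled out after its values were seen, had 1.88, 0.47 and 1.03 (mean 1.13 ± 0.71, SD, n = 3, limma adjusted p = 0.0904), and its other probe had a mean of 1.35. Relb, an NF-kB subunit gene singled out after its values were seen, had 0.35, 0.38 and 4.13, while the mean of its other probe was 0.31. Of the muscle markers Mb, the myoglobin gene, rose (mean 0.57 ± 0.14, SD, n = 3, limma adjusted p = 0.045). The median over the 6 endothelial markers, with Vwf and Cdh5 the bright ones (means of 0.27 and 0.10), was 0.24, 0.03 and 0.09 on the arrays, and that over the 6 fibroblast markers, with Dcn and Col1a2 (0.10 and 0.19), was 0.29, 0.02 and 0.11.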
